A study of Mus musculus with 91 samples.

Results

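The liver of mice fed a high-fat diet (HFD) for 16 weeks was compared with the liver of mice kept on a normal diet (ND) for the same time. The comparison was defined by the labels, and held 3 arrays of the HFD group and 3 of the ND group, 6 of the 51 liver arrays and of the 91 samples of the series. All mice were C57BL/6J males, started on the diets as young animals after a period on the normal diet, and were 21 weeks old at this time point. ND was the AIN-76 diet, with corn oil as its fat. HFD was made from it with lard and cholesterol added and with less corn oil, sucrose and corn starch, so that several components differed together between the groups and their effects cannot be told apart. Total RNA was hybridized to Illumina mouse BeadChips, and the values used here are normalized log2 values. The labels do not say whether a liver array held RNA of a single mouse or of several, so that the p-values below measure the spread between arrays.

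The liver takes up cholesterol and fatty acids, makes both when the diet supplies little, and exports them in lipoproteins and bile. Cholesterol synthesis is controlled by feedback: when sterols are plentiful, the transcription factor SREBP-2 (gene Srebf2) is held in the endoplasmic reticulum and the enzymes of the pathway are transcribed less, whereas oxidized sterols activate the LXR receptors, which raise sterol export and Srebf1. Surplus fatty acids are stored as triglyceride in lipid droplets, whose coat proteins are in large part targets of the PPAR receptors. Foreign compounds, bile acids and lipids also act through the nuclear receptors CAR (Nr1i3) and PXR, which induce cytochrome P450 genes.

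Hepatocyte markers were at high levels in all 6 arrays, with Ahsg at 15.79, 15.83 and 15.80 in HFD liver and 15.77, 15.77 and 15.86 in ND liver (log2 values), although the Alb and Tat probes, of the 10 hepatocyte genes measured, read low in both groups. HFD replicate 1 stood apart from the other arrays before any gene was considered. Its correlation with the other 5 arrays of 16 weeks lay between 0.964 and 0.973, against 0.988 to 0.995 among those 5. It differed by more than 1 log2 unit from both other HFD arrays on 1039 probes, 202 above and 837 below, the highest number of all 51 liver arrays and against 7 and 8 probes for HFD replicates 2 and 3. Genes of cytosolic ribosomal proteins, which are short and highly expressed, were low in this array: 41 of 58 lay more than 1 log2 unit under the ND mean in HFD replicate 1, against 0 of 58 in HFD replicates 2 and 3. Genes of the mitochondrial respiratory chain had a median of -1.04 log2 units from the ND mean in HFD replicate 1, against -0.02 and -0.03 in HFD replicates 2 and 3. The part of this array in the differences below was not tested. Counts over gene lists, and genes described by their single arrays, are therefore given with it and without it, and other genes said to have risen or fallen also passed without it unless stated.

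**Figure D1:**
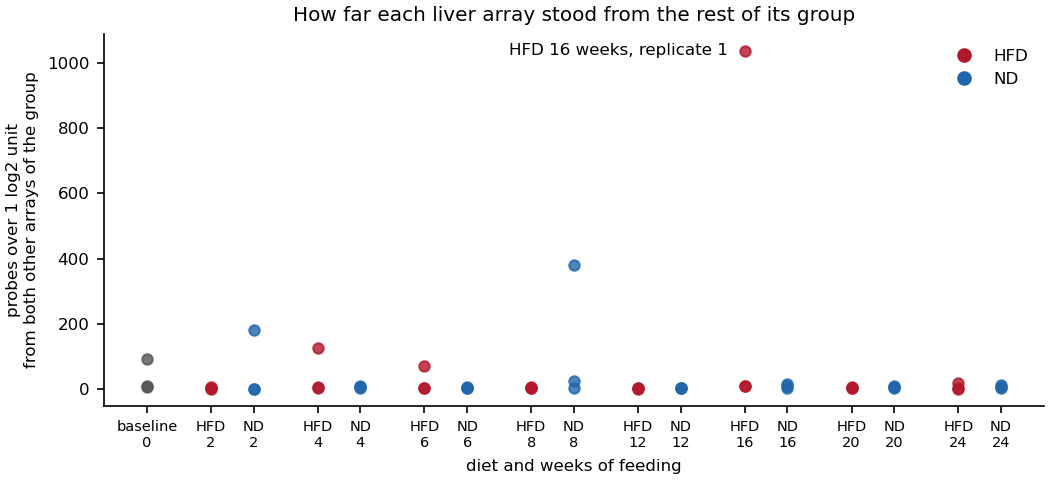
Number of probes, for each of the 51 liver arrays (1 point each), that lay more than 1 log2 unit from both other arrays of its group and on the same side of them, by diet and weeks of feeding. HFD replicate 1 of 16 weeks reached 1039 probes, and the next array, of ND at 8 weeks, reached 379.

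Of 45281 probes, 1562 rose and 1207 fell in HFD liver at an adjusted p under 0.05 (limma over all liver arrays with Benjamini-Hochberg adjustment), 3.45% and 2.67% of those tested. Probes that also differed by more than 2-fold were called HFD-responsive: 74 rose and 63 fell, 0.163% and 0.139% of all probes, on 59 and 46 gene symbols. Without HFD replicate 1, 705 probes rose and 469 fell, and 64 and 40 were HFD-responsive. Of the 1562 probes that rose, 626 also rose without that array (40.1%), and of the 1207 that fell, 392 did so (32.5%). Most of the HFD-responsive changes were kept, 43 of 59 symbols that rose and 26 of 46 that fell. The spread in these tests came from all liver arrays, and when the 6 arrays of 16 weeks were fitted alone, 21 HFD-responsive probes rose and 15 fell. Groups whose 3 HFD values lay wholly above or below the 3 ND values made up 16.3% of all probes.

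Gene groups are described below by 1 probe per gene, the brightest over the liver arrays. On this measure 5.58% of 19057 genes rose and 3.52% fell, against 2.63% and 1.31% without HFD replicate 1, and the median log2 difference of all genes was 0.0027 with it and 0.0012 without it.

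Genes of cholesterol synthesis fell. Of 15 measured genes of sterol synthesis, 11 fell and 0 rose, with a median log2 difference of -0.78, and 10 of the 15 fell without HFD replicate 1, with the same median of -0.78. Fdps, which makes farnesyl diphosphate, read 9.19, 10.19 and 9.79 in HFD liver against 11.98, 12.54 and 12.25 in ND liver. All HFD values lay below all ND values, and the gene fell by 2.54 on the log2 scale (SE 0.21, adjusted p = 3.38e-11), and fell by 2.27 without HFD replicate 1. Sqle, the squalene epoxidase that starts the sterol-specific branch, read 7.44, 7.29 and 7.28 in HFD liver against 9.25, 9.87 and 9.17 in ND liver. It fell by 2.09 (SE 0.19, adjusted p = 1.39e-10), and fell by 2.15 without that array. Cyp51, the lanosterol demethylase, read 8.54, 8.40 and 8.18 in HFD liver against 9.52, 9.86 and 9.90 in ND liver, and fell by 1.38 (SE 0.15, adjusted p = 1.27e-08), and fell by 1.47 without HFD replicate 1. Msmo1, Tm7sf2 and Nsdhl, which act on the sterols after Cyp51, fell by 1.25, 1.21 and 1.09, and Pmvk, a kinase of the mevalonate steps, fell by 1.03. Hsd17b7, Mvd and Dhcr7 fell by 0.78, 0.68 and 0.50. Ebp passed only with HFD replicate 1, which read 11.46 against 12.58 and 12.51 in the other HFD arrays and 12.68, 12.54 and 12.72 in ND liver. Sc5d, Lss, Idi1 and Mvk had differences between -0.25 and -0.06 and did not pass.

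**Figure D2:**
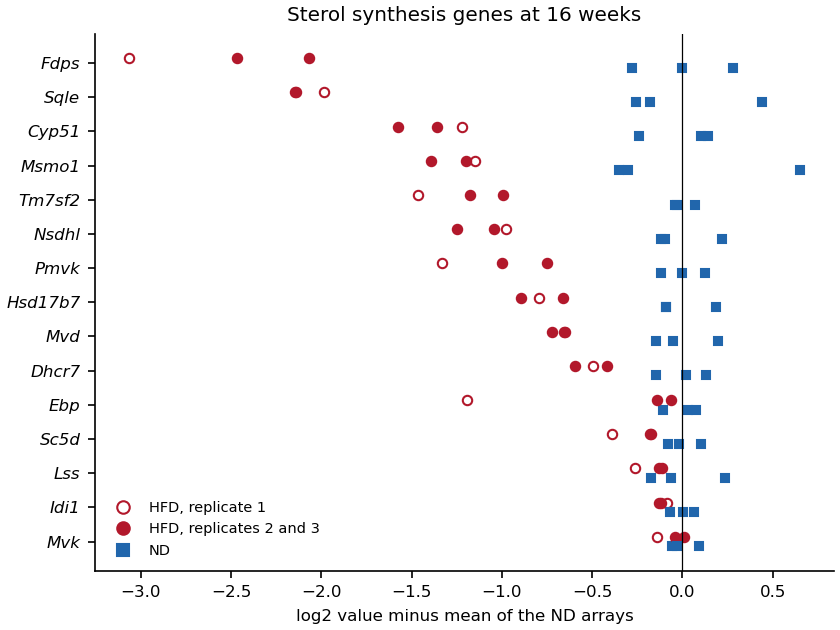
Log2 value of each of 15 sterol synthesis genes in each array, minus the mean of the 3 ND arrays of that gene, with HFD replicate 1 as open circles, HFD replicates 2 and 3 as filled circles and ND arrays as squares. For the upper 10 genes all HFD points lie left of all ND points, while Ebp is low in HFD replicate 1 alone.

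These genes fell together, and the promoters of 3 of them are shown for the CCAAT box, the site of the factor NF-Y that is known to act beside SREBP on sterol genes. The sequences (RefSeq, GRCm38.p6) run 5′ to 3′ on the strand of the gene, with the start site after base 250, and the capitals mark CCAAT or its reverse complement ATTGG. They lie at chr8:64733529-64733828 (minus strand, Msmo1), chrX:72918271-72918570 (plus strand, Nsdhl) and chr5:4104648-4104947 (minus strand, Cyp51).
Msmo1: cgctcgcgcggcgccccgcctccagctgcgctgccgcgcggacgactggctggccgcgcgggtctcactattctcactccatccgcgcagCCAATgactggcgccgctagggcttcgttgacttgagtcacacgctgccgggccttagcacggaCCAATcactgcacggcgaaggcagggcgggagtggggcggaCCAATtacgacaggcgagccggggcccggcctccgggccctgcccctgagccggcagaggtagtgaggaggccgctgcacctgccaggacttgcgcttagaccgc
Nsdhl: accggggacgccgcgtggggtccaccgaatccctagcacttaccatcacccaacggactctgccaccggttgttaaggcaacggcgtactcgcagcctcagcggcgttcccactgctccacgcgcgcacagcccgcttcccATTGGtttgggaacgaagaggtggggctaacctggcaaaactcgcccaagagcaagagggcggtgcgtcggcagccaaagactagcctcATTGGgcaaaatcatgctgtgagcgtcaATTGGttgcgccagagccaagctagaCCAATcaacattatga
Cyp51: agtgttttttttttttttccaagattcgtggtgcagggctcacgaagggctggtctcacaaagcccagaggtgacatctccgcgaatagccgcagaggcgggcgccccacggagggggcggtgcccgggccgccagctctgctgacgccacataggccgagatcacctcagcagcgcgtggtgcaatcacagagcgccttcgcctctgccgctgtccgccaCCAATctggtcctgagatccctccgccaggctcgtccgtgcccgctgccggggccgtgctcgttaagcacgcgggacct

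Msmo1 held 3 matches, Nsdhl 4 and Cyp51 1. Of the 10 sterol synthesis genes that fell with and without HFD replicate 1, 8 had an entry in the promoter table, and 8 of their 11 promoters held CCAAT on one strand or the other. So did all 5 promoters of the other 5 genes of the list, while 37.4% of 32851 promoters of this length held it. The sterol regulatory element searched as TCACNCCAC on both strands was in none of these genes' promoters and in 1.24% of all promoters, and the E-box CACGTG was in the promoters of 2 of the 8 and in 7.15% of all. Matches that overlapped another motif were counted for each.

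Of 7 measured genes of sterol sensing and uptake, 3 fell and 0 rose, with a median of -0.12. Stard4, a carrier of cholesterol inside the cell, read 9.20, 9.56 and 9.40 in HFD liver against 10.62, 11.06 and 10.86 in ND liver, and fell by 1.46 (SE 0.20, adjusted p = 1.38e-06), and fell by 1.36 without HFD replicate 1. Insig1, which retains the SREBP complex, fell by 0.64 and Srebf2 itself fell by 0.47. The same 3 fell without HFD replicate 1, although Srebf2 then had an adjusted p of 0.0481. Npc1, Scap, Npc1l1 and Insig2 did not pass, with differences of -0.12, -0.09, 0.16 and 0.19.

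Sterol export genes divided. Abcg5 and Abcg8, the half-transporters that pump sterols into bile, were 2.83-fold and 2.84-fold higher. Abcg5 read 14.65, 13.92 and 13.78 in HFD liver against 12.64, 12.65 and 12.56 in ND liver, and Abcg8 read 14.36, 13.13 and 12.92 in HFD liver against 11.94, 11.83 and 12.13 in ND liver. Both were highest in HFD replicate 1, and without it they were 2.35-fold and 2.09-fold higher. Pltp, which moves phospholipid between lipoproteins, fell by 0.88 (SE 0.14, adjusted p = 2.06e-05), and fell by 0.92 without that array. The LXR gene Nr1h3 and the exporter gene Abca1 did not pass, at -0.14 and -0.13, and 2 of 9 genes of the list rose and 1 fell in both fits.

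Genes of fatty acid synthesis fell in part: 5 of 17 fell and 1 rose, with a median of -0.18, and 6 fell and 1 rose without HFD replicate 1, with a median of -0.25. Acacb, whose product makes malonyl-CoA at the mitochondrion, read 10.72, 10.21 and 9.45 in HFD liver against 11.29, 11.22 and 11.47 in ND liver. It fell by 1.20 (SE 0.22, adjusted p = 0.000194), and fell by 1.501 without HFD replicate 1, which was the nearest to ND. The desaturases Fads1 and Fads2 fell by 0.69 and 0.76, the acetyl-CoA synthetase Acss2 fell by 0.81 and the elongase Elovl3 fell by 1.02. Srebf1 read 10.39, 9.47 and 9.21 in HFD liver against 8.50, 8.73 and 8.47 in ND liver and rose by 1.12 (SE 0.17, adjusted p = 1.97e-05), and by 0.77 without HFD replicate 1, its highest array. Fasn and Scd1, the enzymes that name the pathway, did not pass, with differences of -0.26 and -0.07. None of 12 measured genes of triglyceride synthesis passed, with or without that array, and their median was -0.01.

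Lipid droplet genes gave some of the largest rises. Cidea, a droplet-fusion protein of brown fat that is low in lean liver, read 10.55, 11.41 and 11.24 in HFD liver against 7.85, 7.39 and 7.14 in ND liver. The rise was 12.2-fold (3.61 on the log2 scale, SE 0.21, adjusted p = 1.72e-15), and 14.6-fold without HFD replicate 1. Plin4, a droplet coat protein, read 11.65, 10.66 and 11.09 in HFD liver against 8.78, 8.58 and 8.08 in ND liver, 6.29-fold higher (SE 0.22 on the log2 scale, adjusted p = 1.05e-11), and 5.26-fold without HFD replicate 1. Cidec, the related protein of white fat, read 10.34, 9.92 and 10.20 in HFD liver against 8.78, 8.52 and 8.48 in ND liver, 2.94-fold higher, and 2.76-fold without HFD replicate 1. Plin2, the most general droplet coat protein, read 11.93, 11.91 and 11.75 in HFD liver and 11.98, 11.77 and 11.84 in ND liver, a difference of 0.00. In all 3 of 12 genes of the list rose, with and without HFD replicate 1, and G0s2, an inhibitor of triglyceride breakdown, fell only with it. Of 8 measured adipocyte markers, Cidec was the only one that passed. Adipoq, the adiponectin gene, read 6.91, 7.18 and 6.83 in HFD liver and 6.99, 6.91 and 7.01 in ND liver, near the median probe (7.03), and Fabp4, Lep, Plin1 and Retn also lay near it. The summed linear level of the list was 31582, 30049 and 27525 in HFD liver against 24681, 21511 and 25602 in ND liver, most of it from Car3, a carbonic anhydrase also abundant in liver, which read 14.85, 14.79 and 14.64 in HFD liver and 14.52, 14.31 and 14.58 in ND liver and did not pass.

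Among genes of fatty acid uptake, 2 of 13 rose and 1 fell, and 2 rose and 3 fell without HFD replicate 1. Lpl, the lipase that frees fatty acids from circulating triglyceride, read 11.92, 11.81 and 12.28 in HFD liver against 10.45, 10.15 and 10.32 in ND liver, 3.24-fold higher (SE 0.14 on the log2 scale, adjusted p = 8.34e-12), and 3.34-fold without HFD replicate 1. Vldlr, a receptor of triglyceride-rich lipoproteins, rose by 1.28, and by 0.96 without HFD replicate 1. Fabp5, a fatty acid carrier, read 6.54, 6.94 and 6.83 in HFD liver against 8.67, 8.65 and 9.00 in ND liver, and fell by 2.00 (SE 0.15, adjusted p = 4.17e-12), and fell by 1.89 without HFD replicate 1, to a level under the median probe that cannot be told from background. A further Fabp5 probe read low in both groups and differed by 0.10. Acsl5 and Acsl3 passed as falls only without HFD replicate 1, and the fatty acid transporter gene Cd36 was at the level of the median probe or under it and did not pass.

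Fatty acid oxidation and PPAR-alpha target genes had a median of -0.13, and 4 of 22 fell and 1 rose, none of which passed without HFD replicate 1. Fgf21, a fasting hormone of the liver, read 8.32, 9.26 and 10.14 in HFD liver against 10.01, 10.31 and 10.40 in ND liver, so that the groups overlapped, and its fall of 1.00 had an adjusted p of 0.0259, and of 0.443 without that array. Cyp4a14 and Hadha fell by 0.75 and 0.62 and Acadm rose by 0.31, and Ppara and Cpt1a had differences of -0.12 and -0.33 and did not pass.

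**Figure D3:**
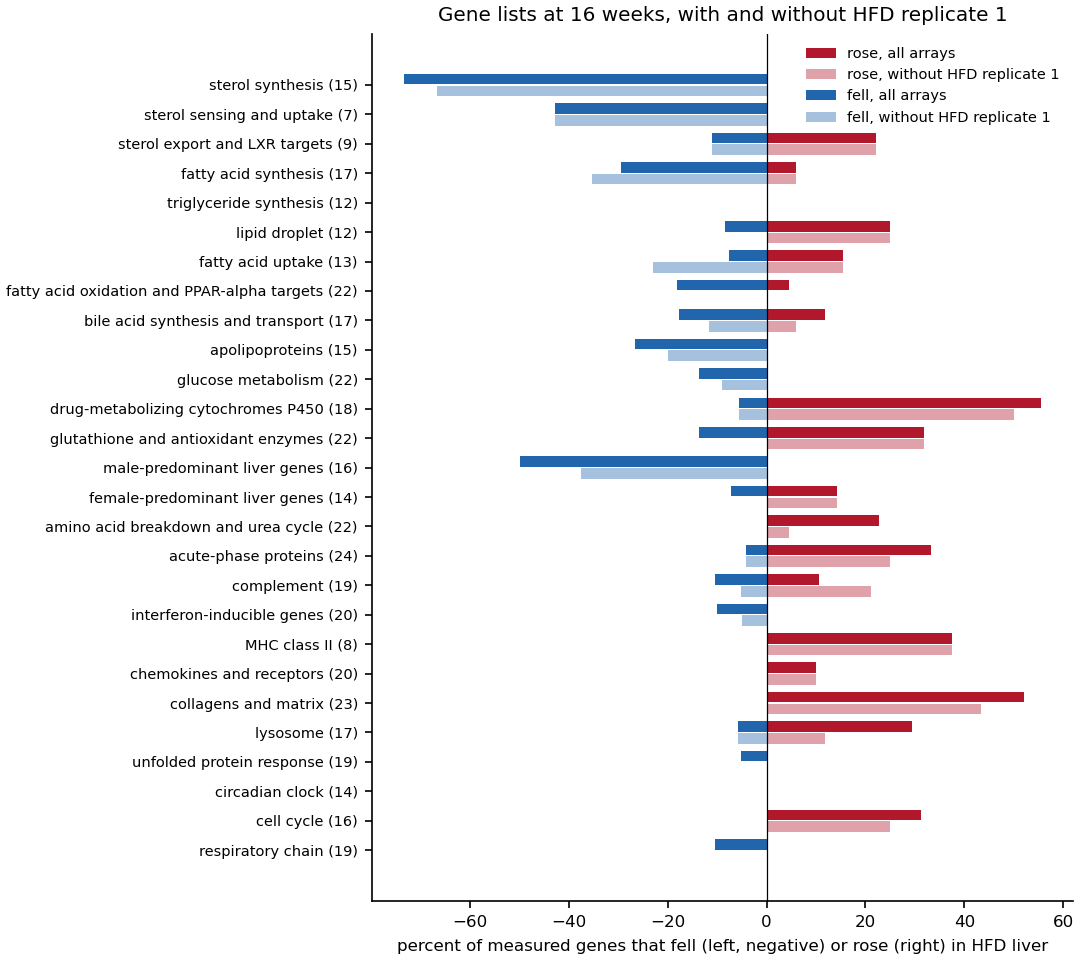
Percent of the measured genes of each of 27 lists that rose (right, red) or fell (left, blue) in HFD liver at 16 weeks, with all arrays (dark) and without HFD replicate 1 (pale); the number of measured genes is in brackets. Sterol synthesis has the longest bar to the left, and cytochromes P450 and matrix genes have the longest bars to the right.

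Genes of foreign-compound metabolism rose. Of 18 measured cytochrome P450 and receptor genes of drug metabolism, 10 rose and 1 fell, with a median of 0.56, and 9 rose and 1 fell without HFD replicate 1, with a median of 0.37. Cyp3a11, the main PXR target of mouse liver, read 15.78, 14.66 and 14.81 in HFD liver against 13.14, 12.70 and 12.64 in ND liver, 4.77-fold higher (SE 0.21 on the log2 scale, adjusted p = 2.52e-10), and 3.75-fold without HFD replicate 1. Cyp2b10, the main CAR target, read 8.92, 8.15 and 8.27 in HFD liver against 6.77, 6.68 and 6.67 in ND liver, where it lay under the median probe and cannot be told from background. It rose by 1.74 on the log2 scale, and by 1.502 without HFD replicate 1. Cyp2a5, Cyp2c55 and Cyp3a13 also rose, by 1.09, 0.92 and 0.84, and Nr1i3 rose by 0.51. Cyp17a1, which acts in steroid synthesis, was the gene that fell: it read 7.93, 8.01 and 7.90 in HFD liver against 10.72, 10.91 and 10.32 in ND liver, and fell by 2.70 (SE 0.25, adjusted p = 3.22e-10), with and without HFD replicate 1.

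Cyp2b9 and Cyp2b13, which are known to be higher in female than in male mouse liver, rose in these males, and so did the related Cyp2b23. Cyp2b9 read 12.34, 9.18 and 11.21 in HFD liver against 7.21, 7.05 and 7.00 in ND liver, where it lay near the median probe. It rose by 3.82 on the log2 scale (SE 0.45, adjusted p = 1.15e-07), and by 3.11 without HFD replicate 1, against an ND level that cannot be told from background. The 3 HFD arrays lay far apart, over 3 log2 units. Cyp2b23 read 10.62, 7.95 and 9.57 in HFD liver against 7.07, 7.09 and 7.06 in ND liver, and Cyp2b13 read 9.38, 7.28 and 8.63 in HFD liver against 6.91, 6.73 and 7.00 in ND liver. They rose by 2.31 and 1.55, and by 1.69 and 1.07 without HFD replicate 1, against ND levels near or under the median probe. The order of the 3 HFD arrays was the same for these 3 genes, which are close in sequence, so that their probes may read each other's transcripts. When the 6 arrays were fitted alone, Cyp2b9 had an adjusted p of 0.142 and Cyp2b23 of 0.295. Of 14 measured genes of female-predominant expression 2 rose, Cyp2b9 and Cyp2b13, 1 fell, Cyp4a14, only with HFD replicate 1, and the median of the list was 0.03.

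Genes of male-predominant expression fell: 8 of 16 measured fell and 0 rose, with a median of -0.71, and 6 fell without HFD replicate 1, with a median of -0.47. Hsd3b5, a steroid-reducing enzyme of male liver, read 8.04, 12.07 and 11.06 in HFD liver against 12.99, 13.26 and 13.49 in ND liver. It fell by 2.86 on the log2 scale (SE 0.47, adjusted p = 5.88e-05), and fell by 1.68 without HFD replicate 1, which lay at -3.02 log2 units from the next HFD array. In the 6 arrays alone its adjusted p was 0.418. The major urinary protein gene Mup21 read 12.71, 14.64 and 14.57 in HFD liver against 15.49, 15.66 and 15.54 in ND liver, and fell by 1.59, and fell by 0.96 without HFD replicate 1. In the 6 arrays alone its adjusted p was 0.377. Serpina1e, Mup5 and Mup20 fell by 1.24, 1.08 and 1.01, of which Mup20 did not pass without HFD replicate 1 (adjusted p = 0.165), while Serpina1e fell by 0.68 without it. The Mup genes are near-identical copies, and the probes may not separate them. Cyp4a12a and Cyp4a12b, likewise near-identical, fell by 0.73 and 0.79.

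Glutathione transferases and antioxidant genes rose in part, 7 of 22 with and 7 without HFD replicate 1, while the 3 that fell with it, Gstp1, Gstm5 and Gstt2, did not pass without it. Gsta1 rose by 1.90 on the brightest of its 3 probes. On the probe with its largest change it read 9.90, 9.98 and 10.50 in HFD liver against 7.25, 7.05 and 6.77 in ND liver, where the mean lay just under the median probe, and rose by 3.10 (SE 0.38, adjusted p = 2.81e-07), and by 3.21 without HFD replicate 1, against an ND level that cannot be told from background. Gsta2 read 9.26, 9.45 and 9.73 in HFD liver against 7.44, 7.48 and 7.49 in ND liver, 4.04-fold higher, and 4.35-fold without HFD replicate 1. Gstm1 and Gstm2 rose by 0.81 and 0.75 and Gsta4 rose by 0.65. Nqo1 and Srxn1, known targets of the oxidant-sensing factor NRF2, rose by 0.60 and 0.51.

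Of 17 genes of bile acid synthesis and transport 3 fell and 2 rose, and 2 fell and 1 rose without HFD replicate 1. Cyp8b1, which makes cholic acid, read 14.69, 14.68 and 14.65 in HFD liver against 15.43, 15.50 and 15.42 in ND liver, and fell by 0.78 (SE 0.10, adjusted p = 8.77e-07), with and without that array. Slc10a1, the uptake carrier of the sinusoidal membrane, fell by 0.65, and Abcc3, an export pump of the same side, rose by 1.12 (SE 0.12, adjusted p = 4.96e-09), and by 1.05 without that array. Cyp7b1 fell by 0.89 with HFD replicate 1 and did not pass without it (adjusted p = 0.0511), and Hsd3b7 rose by 0.34 only with it. Cyp7a1, the rate-limiting enzyme, read 14.32, 12.68 and 12.68 in HFD liver and 12.71, 13.34 and 12.67 in ND liver and did not pass.

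Of 15 apolipoprotein and lipoprotein genes, 4 fell and 0 rose, and 3 fell without HFD replicate 1, 2 of them in both. Apom, carried on HDL, read 10.12, 11.68 and 11.74 in HFD liver against 12.83, 12.84 and 12.74 in ND liver on the probe with the larger change, and fell by 1.62 (SE 0.19, adjusted p = 9.31e-08), and fell by 1.10 without HFD replicate 1. In the 6 arrays alone its adjusted p was 0.284. On its brighter probe it fell by 1.35. Apoa4 fell by 0.90, and Apoh and Apof passed only with HFD replicate 1. Of 22 genes of glucose metabolism 3 fell and 0 rose. They were Igfbp2, which binds insulin-like growth factors and fell by 1.07, Pck1, the control enzyme of gluconeogenesis, which fell by 0.64, and Fbp1, which fell by 0.32 and did not pass without HFD replicate 1, whereas G6pc, with a difference of -0.32, did not pass. Of 22 genes of amino acid breakdown and the urea cycle 5 rose, of which Gpt, an alanine transaminase, also rose without HFD replicate 1.

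Inflammatory genes gave a mixed account. Of 24 acute-phase genes, 8 rose and 1 fell, and 6 rose and 1 fell without HFD replicate 1. Lcn2, a siderophore-binding protein, read 10.04, 10.06 and 11.53 in HFD liver against 8.61, 8.56 and 8.06 in ND liver, 4.38-fold higher (SE 0.44 on the log2 scale, adjusted p = 0.00119), and 5.21-fold without HFD replicate 1. In the 6 arrays alone its adjusted p was 0.153. Saa1, Orm2 and Saa4 rose by 1.41, 1.38 and 1.35, Ubd by 1.13, and Saa3 by 1.11. Saa3 read 7.65, 9.64 and 9.60 in HFD liver against 7.97, 7.94 and 7.65 in ND liver, and rose by 1.77 without HFD replicate 1, which lay within the ND values. Apcs, the serum amyloid P gene, fell by 0.93. Of 8 MHC class II genes the same 3 rose with and without that array, Cd74, H2-Ab1 and H2-Eb1, by 0.86, 0.90 and 0.96, with ND replicate 1 at 11.24 for Cd74 against 10.12 and 10.50 in the other ND arrays, so that the groups overlapped. Of 20 interferon-inducible genes 0 rose and 2 fell, Isg15 and Mx2, by 0.84 and 0.45, and Isg15 did not pass without HFD replicate 1. Of 20 chemokine and receptor genes 2 rose, Ccl4 and Cx3cr1, by 0.87 and 0.50, and without HFD replicate 1 Cx3cr1 did not pass (adjusted p = 0.0741) and Cxcl14 did. Of 19 complement genes 2 rose and 2 fell, and 4 rose and 1 fell without HFD replicate 1. The largest change was in C8b, a component of the membrane attack complex, which read 11.16, 11.77 and 11.70 in HFD liver against 12.42, 12.73 and 13.02 in ND liver, and fell by 1.18, and fell by 0.99 without HFD replicate 1.

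Macrophage genes were higher in part. Of 16 macrophage and Kupffer cell markers 4 rose and 0 fell, and 5 rose without HFD replicate 1, 3 of them in both. Lyz2, Vsig4, Adgre1 and Clec4f rose by 1.24, 0.56, 0.55 and 0.35, of which Adgre1 did not pass without that array (adjusted p = 0.0833), and Csf1r, Cd14 and Itgam did not pass. The summed linear level of the list was 10512, 10305 and 14726 in HFD liver against 9175, 6599 and 7850 in ND liver. The list of lipid-associated macrophages held 11 measured genes, and 5 of them rose and 2 fell, with and without that array. Its summed level was 7879, 7012 and 12569 in HFD liver against 5264, 4410 and 4700 in ND liver. A large part of this sum came from Lpl, given above, which read 11.92, 11.81 and 12.28 in HFD liver against 10.45, 10.15 and 10.32 in ND liver. A sum without Lpl was not made, and the part of these cells in the rises was not tested. Gpnmb, a lysosomal glycoprotein of lipid-laden macrophages, read 10.18, 7.91 and 10.51 in HFD liver against 7.11, 7.19 and 7.15 in ND liver, and rose by 2.38 (SE 0.36, adjusted p = 1.17e-05), and by 2.06 without HFD replicate 1, against an ND level near the median probe. It was HFD replicate 2 that lay near ND, and in the 6 arrays alone the adjusted p of Gpnmb was 0.301. Further Gpnmb probes differed by 0.07, 0.27 and -0.02 and did not pass. Lgals3, Mmp12 and Trem2 rose by 1.12, 0.72 and 0.56, each highest in HFD replicate 3. The genes of this list that fell were Fabp5 and Cd9, by 2.00 and 0.63. In these bulk samples more cells of a type and more RNA per cell cannot be told apart.

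Genes of collagen and matrix rose: 12 of 23 rose and 0 fell, with a median of 0.40, and 10 rose without HFD replicate 1, 9 of them in both, with a median of 0.29. The rises were small. Mmp13, a collagenase, read 8.01, 7.33 and 8.70 in HFD liver against 7.05, 6.94 and 7.02 in ND liver, near the median probe, and rose by 1.01 with and without HFD replicate 1. The basement membrane gene Col4a1 read 9.72, 9.36 and 9.89 in HFD liver against 8.96, 9.01 and 9.07 in ND liver, and rose by 0.64 (SE 0.11, adjusted p = 0.000153), and by 0.61 without that array. Col6a1, Col14a1 and Mmp12 rose by 0.69, 0.62 and 0.72, and Col1a1, which lay under the median probe in ND liver, rose by 0.50. Of 11 stellate cell and fibroblast markers 3 rose, Acta2, Reln and Vim, by 0.77, 0.58 and 0.58, of which Vim did not pass without HFD replicate 1 (adjusted p = 0.311), while Des, Pdgfrb and Gfap did not pass.

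Of 16 cell cycle genes 5 rose and 0 fell, and 4 rose without HFD replicate 1. They were genes of the replication licensing complex and of G1: Mcm4 read 10.15, 9.81 and 9.80 in HFD liver against 9.24, 9.26 and 9.22 in ND liver, and rose by 0.68 (SE 0.09, adjusted p = 6.83e-07), and by 0.56 without HFD replicate 1. Mcm5 and Mcm2 rose by 0.72 and 0.57, and Ccnd1 rose by 0.74. The mitotic genes Ccnb2, Cdk1 and Top2a did not pass. Of 17 lysosome genes 5 rose and 1 fell, and 2 rose and 1 fell without HFD replicate 1, with Laptm5 (1.05) the only rise in both. Ctsa fell on the brightest of its 5 probes, at 9.27, 9.38 and 9.86 in HFD liver against 10.96, 11.00 and 10.75 in ND liver, and fell by 1.40, and fell by 1.28 without HFD replicate 1, while its other 4 probes had differences between -0.11 and 0.14 and did not pass. Of 19 respiratory chain genes 2 fell with HFD replicate 1 and 0 without it. Of 19 genes of the unfolded protein response 1 fell, only with that array, and none of 14 circadian clock genes passed.

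Of 11 T and NK cell markers 1 rose, Cd8b1, with and without HFD replicate 1, while Cd3e, Cd4 and Cd8a stayed near the median probe and did not pass. None of 5 B cell, 7 neutrophil, 7 cholangiocyte, 4 red blood cell or 6 skeletal muscle markers passed. The summed linear level of the red blood cell markers was 10308 in HFD replicate 1 and 34753 and 27773 in the other HFD arrays. In ND liver it was 22545, 21472 and 18860. Of 10 endothelial markers 2 rose, Stab1 and Stab2, by 0.47 and 0.40, of which Stab1 did not pass without HFD replicate 1 (adjusted p = 0.115). Of 7 exocrine pancreas markers, Amy2a5 rose and Cela1 fell, both only with HFD replicate 1, and Prss2, Ctrb1 and Cpa1 stayed near the median probe. The summed levels did not overlap between the groups for T and NK cells, stellate cells and fibroblasts, cholangiocytes and exocrine pancreas. Those of the macrophage, lipid-associated macrophage and adipocyte lists, given above, did not overlap either. They overlapped for hepatocytes, B cells, neutrophils, endothelial cells, red blood cells and skeletal muscle. Such sums follow the brightest genes of a list, and 16.3% of single probes did not overlap. For T and NK cells the sums were 4190, 3170 and 3628 in HFD liver against 2529, 2687 and 2692 in ND liver, with Cd8b1 the brightest gene of the list. For stellate cells and fibroblasts they were 9067, 5989 and 7406 in HFD liver against 5113, 5647 and 5235 in ND liver. Cholangiocyte markers summed to 1913 to 1965 in HFD liver against 1580 to 1722 in ND liver, and pancreas markers to 20208 to 23310 in HFD liver against 16172 to 18315 in ND liver. The part of these cells in the results was not tested.

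The remaining genes among the 15 largest rises were Krt23, Ildr2, Anxa2 and Slc39a4. Krt23, a keratin, read 11.48, 11.53 and 11.59 in HFD liver against 8.98, 9.02 and 9.36 in ND liver, 5.32-fold higher (SE 0.25 on the log2 scale, adjusted p = 5.61e-09), and 5.41-fold without HFD replicate 1. Ildr2, a membrane protein of the endoplasmic reticulum linked to liver lipid content in mice, read 11.26, 10.68 and 10.95 in HFD liver against 8.85, 8.62 and 8.49 in ND liver, 4.96-fold higher (SE 0.14, adjusted p = 1.72e-15), and 4.47-fold without that array. Anxa2, a membrane-binding protein, read 12.56, 11.85 and 12.69 in HFD liver against 10.50, 10.37 and 10.28 in ND liver, 3.95-fold higher, and 3.70-fold without that array. Slc39a4, a zinc importer, read 11.15, 10.30 and 10.78 in HFD liver against 9.02, 9.19 and 8.64 in ND liver, 3.47-fold higher, and 3.01-fold without that array. A larger difference than any of these, 4.76 on the log2 scale, was on a probe that has no gene symbol here, at 12.58, 13.97 and 13.77 in HFD liver against 9.45, 8.59 and 8.00 in ND liver.

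The remaining genes among the 15 largest falls were Moxd1, Tff3, Avpr1a, Ugt1a5, Ctsa and Hamp2. Moxd1, a monooxygenase-like protein, read 6.82, 6.87 and 6.97 in HFD liver, under the median probe, against 8.52, 9.57 and 11.05 in ND liver, where the arrays lay far apart. It fell by 2.83 (SE 0.33, adjusted p = 1.14e-07), and fell by 2.79 without HFD replicate 1, and in the 6 arrays alone its adjusted p was 0.176. Tff3, a trefoil peptide, read 6.80, 6.94 and 6.89 in HFD liver against 8.60, 8.65 and 8.29 in ND liver, and fell by 1.64 (SE 0.21, adjusted p = 3.87e-07), and fell by 1.60 without HFD replicate 1. Its HFD level, like that of Moxd1, lay under the median probe and cannot be told from background. Avpr1a, the vasopressin receptor of hepatocytes, read 8.80, 9.20 and 8.88 in HFD liver against 10.47, 10.72 and 10.21 in ND liver, and fell by 1.51, and fell by 1.43 without that array. Ugt1a5, a glucuronosyltransferase, read 9.03, 8.71 and 8.19 in HFD liver against 10.00, 10.07 and 10.27 in ND liver, and fell by 1.47, and fell by 1.66 without that array. Hamp2, a hepcidin gene, read 10.97, 12.78 and 12.61 in HFD liver against 13.59, 13.71 and 12.93 in ND liver, and its fall of 1.29 (adjusted p = 0.0276) did not pass without HFD replicate 1 (adjusted p = 0.442).

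**Figure D4:**
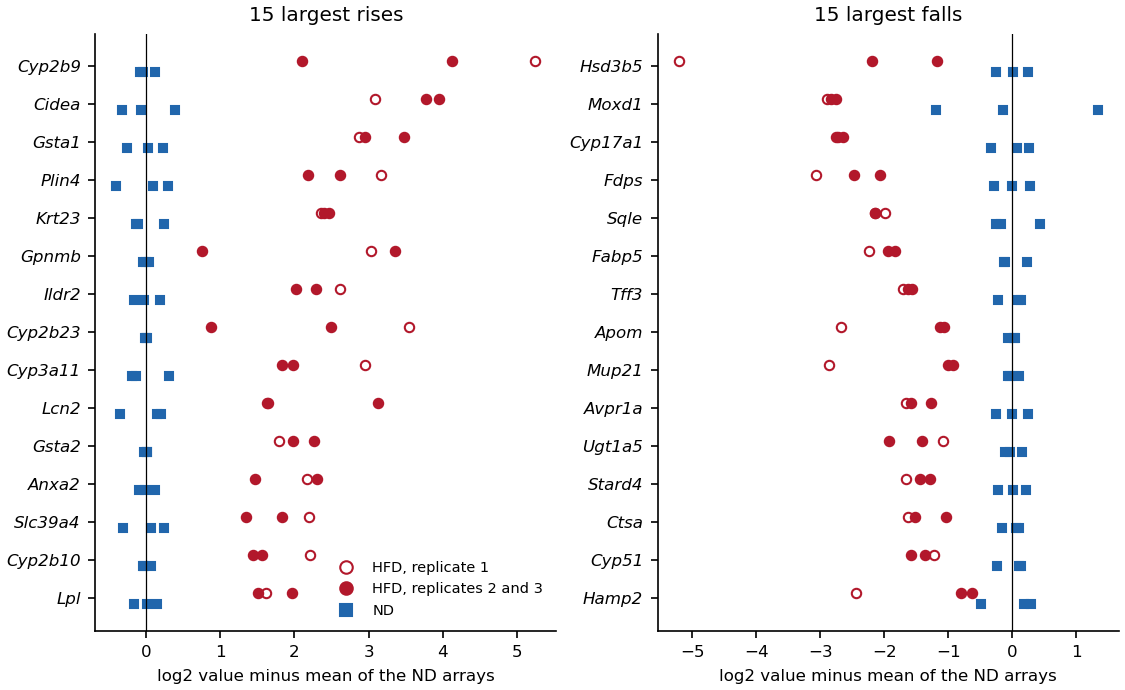
Log2 value in each array minus the mean of the 3 ND arrays, for the 15 genes with the largest rise and the 15 with the largest fall in HFD liver, with HFD replicate 1 as open circles, HFD replicates 2 and 3 as filled circles and ND arrays as squares. Among the falls, HFD replicate 1 lies far below the other HFD points for Hsd3b5, Mup21, Apom and Hamp2. It is also the lowest HFD point for Moxd1, Fdps, Fabp5, Tff3, Avpr1a, Stard4 and Ctsa. The 3 HFD points are close together for Krt23 and Cyp17a1.

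Of these 30 genes, 29 passed without HFD replicate 1, Hamp2 being the exception, and 18 passed when the 6 arrays of 16 weeks were fitted alone. Besides the genes for which this is given above, Cyp3a11, Slc39a4, Ugt1a5 and Hamp2 did not pass in the 6 arrays alone (adjusted p = 0.0577, 0.0562, 0.0651 and 0.491). Of 22 further probes for 15 of these genes, 9 passed in the same direction, 7 had the same direction without passing and 6 had the opposite sign without passing.

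Whether the diet effect at 16 weeks differed from that at other times was asked in the same fit. The effect differed from the mean effect of the other 7 weeks of feeding on 892 probes (1.97%), 523 with a higher and 369 with a lower value at 16 weeks. Without HFD replicate 1 the number was 41 (0.0905%), 40 of them among the 892, so that 40 of the 892 differences remained without that array. Against the neighbouring weeks, 1 probe differed from 12 weeks (0.00221%) and 1 from 20 weeks (0.00221%). The numbers with an unadjusted p under 0.05 were 3716 and 3613. The probes that passed were 1 of Serpina1e against 12 weeks (adjusted p = 0.0113) and 1 of Fabp5 against 20 weeks (adjusted p = 0.00203).

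The 40 probes that differed with and without HFD replicate 1 carried 32 gene symbols, 21 with a higher and 11 with a lower effect at 16 weeks. Of the 40 probes, only that of Fabp5 also differed from a neighbouring week. Cidea had the lowest adjusted p against the mean of the other 7 weeks, but its effect did not differ from that at 12 or 20 weeks (adjusted p = 0.356 and 0.772). Its diet effect on the log2 scale was 0.09, 0.01, 0.22 and 0.83 after 2, 4, 6 and 8 weeks of feeding and 2.66, 3.61, 3.19 and 2.4 after 12, 16, 20 and 24, and the value at 16 weeks exceeded the mean of the other 7 by 2.26 (adjusted p = 6.6e-08). Cyp2b9 had effects of -0.32, -0.31, 0.10, 0.73, 1.45, 3.82, 2.19 and 0.25 at the same weeks, a difference of 3.24 (adjusted p = 0.000195, and 0.00573 without HFD replicate 1). Gpc1, a heparan sulphate proteoglycan, read 14.02, 12.77 and 12.76 in HFD liver against 11.70, 11.46 and 11.71 in ND liver at 16 weeks, and its effect exceeded the mean of the other weeks by 1.33, and by 0.91 without HFD replicate 1. Ildr2, Slc39a4 and Vldlr exceeded it by 1.13, 1.02 and 1.05. Gstm2 exceeded it by 0.90, but its effect at 16 weeks differed from that at 20 weeks by only -0.02, and by -0.17 and -0.24 on its other probes. Moxd1 and Fabp5 differed from that mean by -1.96 and -1.20, and C8b by -0.81. Apom differed by -1.03, and by -0.50 without HFD replicate 1 (adjusted p = 0.0448), and its effects at 20 and 24 weeks were -1.05 and -1.06. By contrast Cyp17a1 had a diet effect between -2.34 and -2.98 at all 8 weeks, and the value at 16 weeks differed from the mean of the others by -0.04 (adjusted p = 0.971).

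Among the lists, MHC class II genes had a median effect of 0.57 at 16 weeks against 1.54 over the other 7 weeks. Of the 8 genes, 6 passed with a lower effect at 16 weeks, and none passed without HFD replicate 1. Interferon-inducible genes gave 6 of 20 that passed with a lower effect at 16 weeks, and without HFD replicate 1 only Psmb8 passed. Of 15 sterol synthesis genes 1, Sqle, passed with a larger fall at 16 weeks, its effect differing from the mean of the other weeks by -0.81. Without HFD replicate 1 the difference was -0.86 and did not pass (adjusted p = 0.128). The list medians were -0.78 at 16 weeks and -0.575 over the others.

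**Figure D5:**
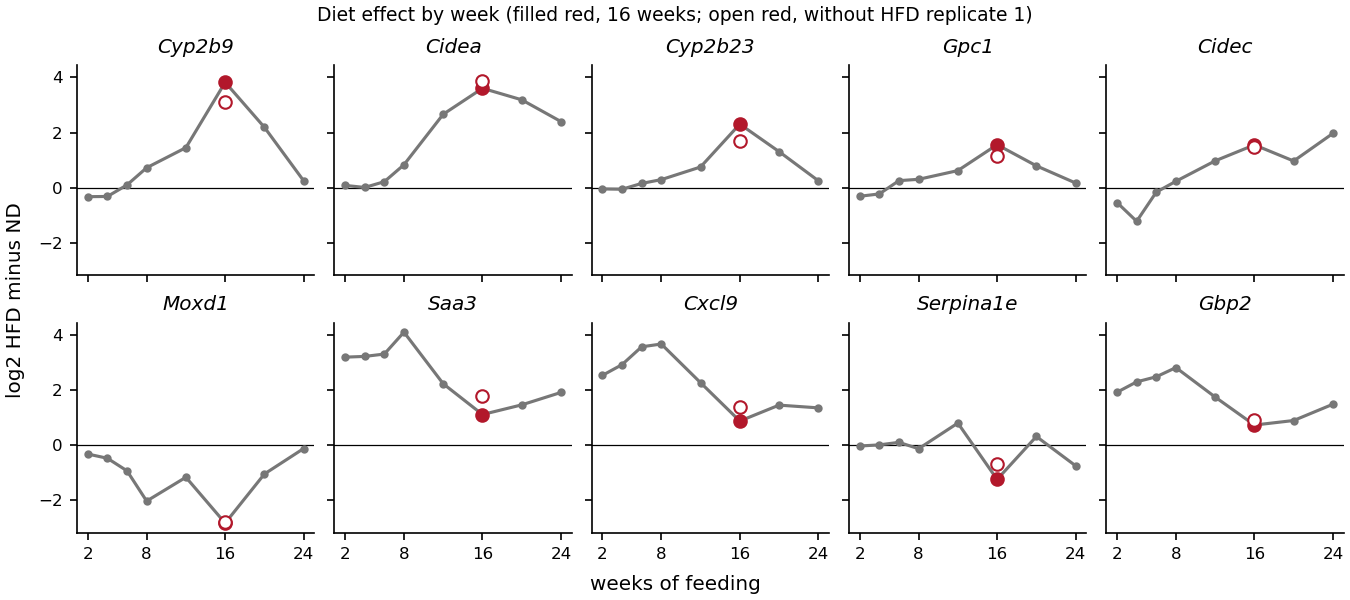
Diet effect (log2 HFD minus ND) by weeks of feeding for the 5 genes whose effect at 16 weeks most exceeded, and the 5 whose effect fell most below, the mean of the other 7 weeks. Filled red points are 16 weeks and open red points are 16 weeks without HFD replicate 1. Cidec and Moxd1 change least when that array is left out, from 1.55 to 1.46 and from -2.83 to -2.79.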

How the data were processed

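Liver RNA of 51 arrays (17 groups of 3) was measured on Illumina mouse BeadChips. The authors deposited normalized log2 values, quantile normalized together over the liver arrays as the values themselves show; the submitters' processing notes name R 2.4.1, and the study's methods, written for adipose tissue, name BeadStudio, ArrayAssist and Bioconductor, without saying whether these made the liver values. No detection p-values were used for the liver, and chip positions are not given, so that a chip effect was not tested. The number of arrays limits the precision. Probe symbols came from the platform annotation, updated through RefSeq: 34885 probes had 1 symbol (34807 matched), 18 several and 10378 none.

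A linear model with 1 mean per group was fitted to all 51 arrays (limma 3.58.1, R 4.3.3, 34 residual degrees of freedom), with Benjamini-Hochberg adjustment over 45281 probes, and "passed" means an adjusted p under 0.05; "rose" and "fell" are used of genes that passed. SE is the moderated standard error of the log2 difference. An exact permutation test of 3 against 3 arrays cannot go below p = 0.1 and was not used. Genes named are the 15 largest rises and the 15 largest falls among HFD-responsive probes without overlap between groups, up to 5 passing genes and the defining genes of each list, and the 5 genes in each direction that differed most from the other weeks; a few more members are named beside counts. Members, lists and this rule were chosen with earlier results of these data known. Lists held 623 entries, of which 565 were measured. The script was tested on simulated data. Replicate numbers were checked for pairing: the deviations of same-numbered HFD and ND arrays correlated at -0.161, 0.183 and -0.283. Those of differently numbered arrays correlated at -0.234 to 0.309. With 3 arrays a group these values cannot show whether the numbers pair the arrays, which were treated as unpaired. Adipose tables were not used here. Alternatives covered the arrays fitted, pairing, normalization, dim probes, the variance model, the test and left-out arrays, and list counts without HFD replicate 1 were added after seeing the data.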

Additional observations from a re-analysis of the deposited data

Results flagged for a closer look

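The diet effect at 16 weeks differed from the mean diet effect of the other 7 weeks, by the interaction contrast in the fit over all liver arrays (adjusted p under 0.05), for 10 named genes. It was higher at 16 weeks by 3.24 for Cyp2b9, 2.26 for Cidea, 1.93 for Cyp2b23, 1.33 for Gpc1 and 1.23 for Cidec on the log2 scale. It was lower, with differences of -1.96 for Moxd1, -1.66 for Saa3, -1.66 for Cxcl9, -1.29 for Serpina1e and -1.22 for Gbp2. Cyp2b9, Cidea, Gpc1 and Moxd1 also passed without HFD replicate 1, while Cyp2b23 (adjusted p = 0.0889), Cidec (0.113), Saa3 (0.177), Cxcl9 (0.533), Serpina1e (0.11) and Gbp2 (0.368) did not. Cxcl9 also did not pass without ND replicate 1, 2 or 3 (adjusted p = 0.194, 0.0823 and 0.064), nor Gbp2 without ND replicate 1 or 2 (0.149 and 0.0819). The effects of Cxcl9 and Gbp2 at 16 weeks, 0.87 and 0.73, did not themselves pass. Cxcl9 read 9.53, 11.31 and 10.76 in HFD liver and 10.22, 9.35 and 9.41 in ND liver, so that the groups overlapped.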

How the results depend on the processing

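Counts of HFD-responsive probes, 74 that rose and 63 that fell, were within 1.5 times of these under cyclic loess, repeated quantile normalization, median centring, the filter on dim probes, the intensity trend, array weights and unadjusted p-values. They were 21 and 15 with the 16-week arrays alone, 1562 and 1207 with no fold threshold, and 0 and 0 by the methods' t-test after Benjamini-Hochberg, which called none of 45281 probes at all while 3553 had an unadjusted p under 0.05. With the replicate number as a block, the 16-week arrays alone gave 7 that rose and 7 that fell, and 7 and 7 with no fold threshold. The replicate block over all liver arrays changed no count by over 1.5 times. The labels link the arrays by no more than this number. Leaving out 1 array gave 64 to 138 that rose and 40 to 120 that fell. Probes with an adjusted p under 0.05, 1562 that rose and 1207 that fell, were 36 and 28 in the 16-week arrays alone, 975 and 637 with array weights, which gave HFD replicate 1 a weight of 0.17, and 705 to 2479 and 469 to 2169 with 1 array left out. HFD replicate 1 gave the lowest of all these counts and HFD replicate 2 the highest, and the count of HFD-responsive falls was also 102 without HFD replicate 3; without ND replicate 2 the probes that passed were 999 and 731. Probes that differed from the other 7 weeks, 892, were 1419 without dim probes and 41 to 3297 with 1 array left out: 41 without HFD replicate 1, 3297 and 3006 without HFD replicates 2 and 3, and 393 and 312 without ND replicates 1 and 2. Against 12 weeks the count of 1 became 3 without dim probes and 2 to 304 with 1 array left out, and against 20 weeks the count of 1 became 1 to 105, the highest again without HFD replicate 2. The causes were not tested. Further probes of named genes had the opposite sign without passing: Gpnmb -0.019, Cyp2b23 -0.036, Fabp5 0.099 and Ctsa 0.075, 0.072 and 0.135.

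Without a detection p-value, a level near the median probe of 7.03 cannot be told from background.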

Other observations

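The genes that set HFD replicate 1 farthest above both other HFD arrays, by 1 probe per gene, included Lypla1, Eef2, Slco1a4 and Cyp7a1, with gaps of 1.78, 1.77, 1.66 and 1.64 log2 units. Those farthest below included Hsd3b5, Grcc10, Anapc13, Saa3 and Tomm7, with gaps of -3.02, -2.06, -2.03, -1.94 and -1.94. Dusp1, an early stress-response phosphatase, read 13.54 in this array and 11.40 and 11.95 in the other HFD arrays, against 11.42, 11.60 and 11.57 in ND liver. These genes were chosen after their values were seen, and no test was made.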
